A study of Mus musculus with 48 samples.

Results

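The Krüppel-like factors (KLFs) described here are 10 genes, Klf2, Klf3, Klf4, Klf5, Klf6, Klf7, Klf9, Klf10, Klf11 and Klf13, of the 50600 mouse genes in the count tables. They were chosen by symbol, and all 10 passed the filter on low counts that left 13889 genes for the tests. RNA was sequenced from mPDAC cells, a line derived from mouse pancreatic ductal adenocarcinoma, that were left non-treated (NT) or received the nucleolin antagonist N6L at 50 µM for 48 h. There were 3 NT cultures (numbered 1, 2 and 4) and 3 N6L cultures (1, 2 and 3). Each gave a cytoplasmic and a polysome library from one lysate after exposure to emetine. The cytoplasmic library holds the mRNA left after spins to remove nuclei and mitochondria. The polysome library holds the mRNA that sediments with several ribosomes. All libraries are therefore from 1 cell line at 1 dose and 1 time, and no source used here says when the cultures of one treatment were grown relative to each other. Levels are given as CPM, counts divided by a library size scaled with TMM, so a value is a share of the mRNA in its fraction. A lower amount of an mRNA per cell and fewer cells that hold it cannot be told apart.

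KLFs are transcription factors with zinc fingers at the C-terminal end, through which they bind CACCC elements and related GC-rich sequences. SP factors bind similar sequences through related fingers. The N-terminal parts of KLFs differ and recruit different partners. Klf2, Klf4, Klf5, Klf6 and Klf7 are mostly known as activators that work with acetyltransferases, Klf3 as a repressor that recruits the corepressor CtBP, and Klf9, Klf10, Klf11 and Klf13 as repressors that bind the corepressor Sin3. Several of them are induced early by serum, growth factors, TGF-β or steroid hormones, and their mRNAs and proteins often turn over rapidly. In epithelia such as the pancreatic duct, Klf4 is known for differentiation and Klf5 for proliferation.

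The 12 libraries held 19519911 to 44972333 counts, and the 10 genes were covered by 1268 to 96978 counts in the 3 libraries of each group. Of 8 ductal epithelial markers, 7 passed the filter and the summed level of the list was 6522 to 10746 CPM, but Epcam, a defining epithelial marker, stayed at 0.301 CPM or below in every library. Within this list Sox9 rose in both fractions (2.12- and 2.11-fold, FDR = 0.0023 and 0.00514) and Krt7 fell in the cytoplasm (log2 -0.97 ± 0.23, FDR = 0.00829). The summed levels of the endothelial, fibroblast and immune lists were 0.35 to 1.18, 0.45 to 1.22 and 1.11 to 2.38 CPM. Of the endothelial markers, Pecam1 was higher in N6L cytoplasm (log2 1.93 ± 0.63, FDR = 0.0352) at 0.314 to 0.444 CPM. The endocrine list did not exceed 0.053 CPM, with 4 of its 5 genes at 0 counts in all 12 libraries. The acinar list summed to 0.633 to 1.93 CPM in the NT libraries and to 2.06 to 4.17 CPM in the N6L libraries, with Cpa1, Cpb1 and Ptf1a at 0 throughout. That sum was carried by Bhlha15. Mitochondrially encoded counts made up 0.454% to 0.966% of NT and 0.121% to 0.242% of N6L cytoplasmic libraries, and 0.0454% to 0.116% of NT and 0.0157% to 0.045% of N6L polysome libraries, without overlap. The lysates had been spun to remove mitochondria, so the mitochondrial shares are of what remained. The part of these markers and shares in the results below was not tested.

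Reads were counted per gene, with no split by exon or isoform. In GRCm38, the activators lie at chr8:72319033-72321656 (Klf2), chr4:55527143-55532466 (Klf4), chr14:99298691-99315036 (Klf5), chr13:5861482-5870394 (Klf6) and chr1:64029447-64122282 (Klf7). Klf3 is at chr5:64803388-64832901, and the Sin3-binding members are at chr19:23141226-23168134 (Klf9), chr15:38291463-38300706 (Klf10), chr12:24651274-24662789 (Klf11) and chr7:63886351-63938915 (Klf13). The 10 genes are thus on 10 chromosomes and none neighbours another.

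Promoter sequences were at hand for 8 of the 10 genes (Klf2, Klf3, Klf4, Klf6, Klf7, Klf9, Klf11 and Klf13). The 250 bases before the RefSeq start site are shown for 4 of them: Klf4 and Klf6, the most abundant, Klf9, with the largest change in the cytoplasm, and Klf2, whose polysome-to-cytoplasm ratio in N6L cells had the opposite sign to that of the others. They lie at chr4:55532476-55532725 (minus strand, Klf4), chr13:5861239-5861488 (plus, Klf6), chr19:23140976-23141225 (plus, Klf9) and chr8:72318812-72319061 (plus, Klf2) of GRCm38.p6, and the last 7 bases for Klf6 and the last 29 for Klf2 are inside the gene as GENCODE draws it. Of the promoters counted below but not shown, all 250 bases for Klf7, 133 for Klf3 and 97 for Klf11 are inside the gene. Each sequence runs 5′ to 3′ along the gene, and capitals mark matches on either strand. The motifs searched were CACCC itself, the GC box with the letters GGGCGG, and the box spelled CCAAT. They also included the cAMP response element TGACGTCA and the element of AP-1 factors, TGANTCA. The E-box was searched as CACGTG, the start element of many promoters as TATAAA, and the CArG box of serum response factor by its name alone.
Klf4: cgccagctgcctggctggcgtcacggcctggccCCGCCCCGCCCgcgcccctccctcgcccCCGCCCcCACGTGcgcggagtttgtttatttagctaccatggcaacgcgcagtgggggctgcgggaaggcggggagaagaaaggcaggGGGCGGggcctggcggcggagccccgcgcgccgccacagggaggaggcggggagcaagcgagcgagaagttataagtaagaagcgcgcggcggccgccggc
Klf6: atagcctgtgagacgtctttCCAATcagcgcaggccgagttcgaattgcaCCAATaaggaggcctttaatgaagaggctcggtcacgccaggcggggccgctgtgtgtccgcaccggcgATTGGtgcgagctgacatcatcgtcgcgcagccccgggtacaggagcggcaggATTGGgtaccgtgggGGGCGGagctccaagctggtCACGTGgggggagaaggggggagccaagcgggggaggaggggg
Klf9: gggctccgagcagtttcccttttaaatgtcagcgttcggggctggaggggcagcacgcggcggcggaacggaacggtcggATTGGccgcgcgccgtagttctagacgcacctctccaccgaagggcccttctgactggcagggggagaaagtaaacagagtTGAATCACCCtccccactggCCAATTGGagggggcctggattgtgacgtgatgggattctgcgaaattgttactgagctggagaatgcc
Klf2: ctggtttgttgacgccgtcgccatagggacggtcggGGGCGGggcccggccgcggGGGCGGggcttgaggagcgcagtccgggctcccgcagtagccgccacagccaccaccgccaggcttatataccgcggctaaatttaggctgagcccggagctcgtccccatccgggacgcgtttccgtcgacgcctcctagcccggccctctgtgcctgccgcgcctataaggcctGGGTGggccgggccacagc
The GC box was in 7 of the 8 KLF promoters, and in 32.7% of the 32851 mouse promoters of the same length. CACCC, the element that KLFs bind themselves, was in 5 of 8, against 52% of all promoters. Klf3 had 5 matches to it, and Klf4, Klf6 and Klf11 had none. CCAAT was in 4 of 8 (33.8% of all), with 4 matches in Klf6 and 3 in Klf9, 2 of which overlap each other. The E-box was in Klf4, Klf6 and Klf11 (6.02% of all) and the AP-1 element in Klf9 alone (6.75% of all), where it overlaps a CACCC. None of the 8 held TGACGTCA, TATAAA or a CArG box, which were in 1.55%, 12.4% and 1.47% of all promoters. The 250 bases held 59.2% to 78.4% G and C in the 8 genes, against a median of 52.4%. These are matches of letters, and no binding was measured.

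The first comparison asked which mRNAs changed in the cytoplasm of cells treated with N6L. All 10 KLF mRNAs were higher with N6L, by log2 0.63 to 1.56 (median 1.07, against 0.04 for all genes tested). Each of the 10 passed the limit of 0.05 on the false discovery rate (FDR, by the quasi-likelihood test of edgeR, adjusted over 13889 genes after Benjamini and Hochberg), as did 14.5% of all genes tested in this direction. For each of the 10, the lowest N6L value lay above the highest NT value, which held in this direction for 29.3% of all genes. The members were picked with results of these libraries already known, so the count is not independent evidence of the direction.

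**Figure D1:**
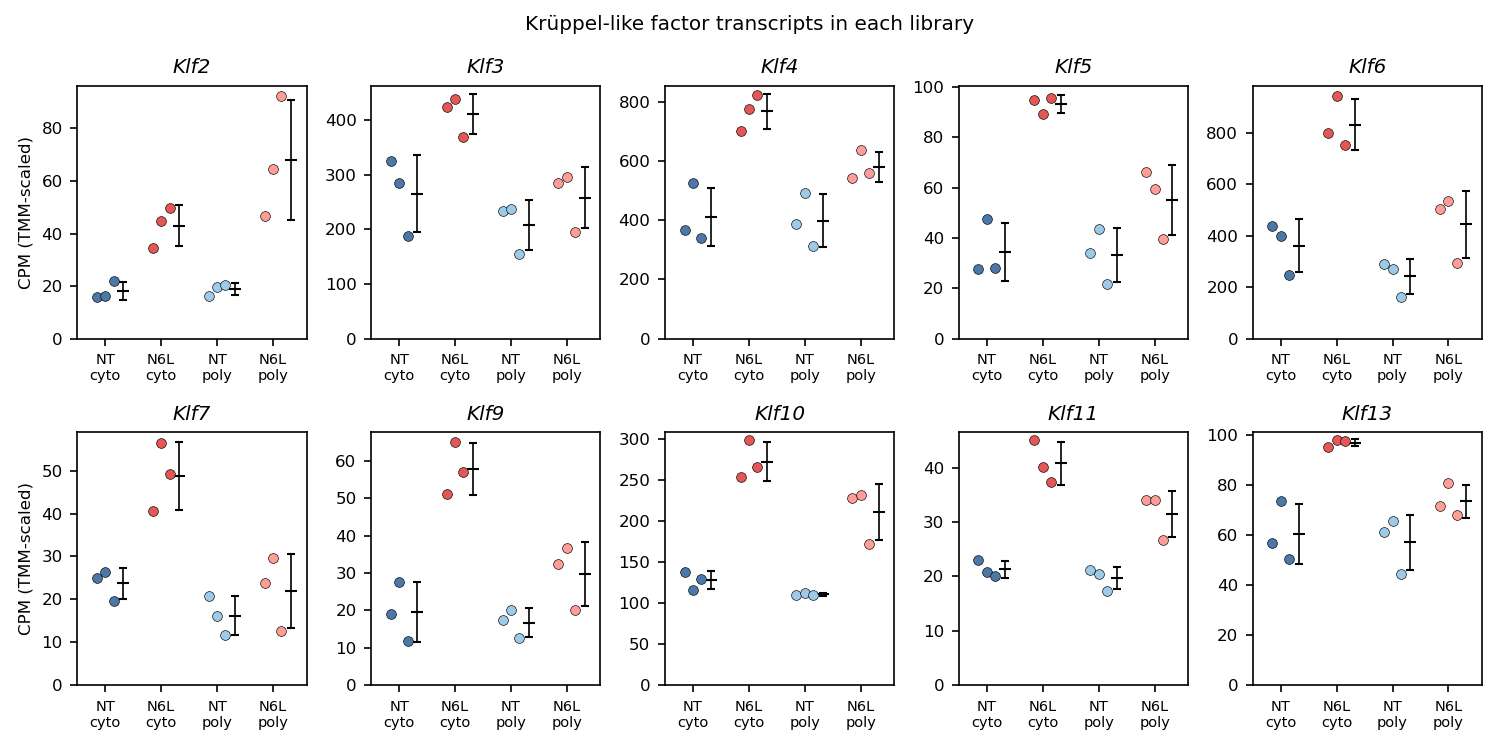
Level of each Krüppel-like factor mRNA (CPM, vertical axis from 0) in the 3 libraries of each group, left to right in order of culture number, with the mean and SD over 3 cultures as a bar beside the points. In the cytoplasm the N6L points of all 10 genes lie above the NT points, while in polysomes they overlap for Klf3, Klf5 and Klf7.

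Among the activators, Klf4, a factor of epithelial differentiation and of pluripotency, was present at 368, 525 and 341 CPM in the cytoplasm of NT cultures 1, 2 and 4 and at 702, 776 and 822 CPM in that of N6L cultures 1, 2 and 3. The groups did not overlap, and the log2 difference was 0.90 ± 0.19 (SE, FDR = 0.00577), or 1.86-fold. Klf6, an immediate early gene with a role as a tumour suppressor, stood at 439, 400 and 245 CPM without N6L and at 798, 942 and 751 CPM with it. NT culture 4 was the lowest, and the rise was 2.3-fold (log2 1.20 ± 0.27, FDR = 0.00728). Klf5, the factor of proliferating epithelium, went from 27.6, 47.5 and 28 CPM to 94.8, 89.3 and 95.6 CPM. The N6L cultures were close together and the NT cultures were spread by culture 2, and the rise was 2.71-fold (log2 1.44 ± 0.27, FDR = 0.00314).

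Klf2, known for quiescence of endothelial cells and T cells, was a low mRNA at 15.9, 16.2 and 22 CPM in NT cytoplasm. It reached 34.6, 44.9 and 49.6 CPM with N6L. All 3 treated cultures were well above the highest NT culture, by 2.39-fold on the fit (log2 1.26 ± 0.24, FDR = 0.00317). Klf7, studied mainly in neurons, was at 25, 26.4 and 19.6 CPM and rose to 40.7, 56.5 and 49.3 CPM, 2.06-fold (log2 1.04 ± 0.28, FDR = 0.0147).

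Among the repressors, Klf9, a target of glucocorticoid and thyroid hormone receptors, had the largest cytoplasmic difference of the 10. It was at 19.1, 27.6 and 11.7 CPM without N6L and at 51, 64.9 and 57 CPM with it, 2.96-fold higher (log2 1.56 ± 0.29, FDR = 0.00304). Klf10, an early gene of the TGF-β response, was at 138, 116 and 129 CPM and then at 254, 299 and 266 CPM. It had the smallest SE of the 10 and the smallest FDR (0.000906, edgeR) for a 2.14-fold rise (log2 1.09 ± 0.15). Klf11, its closest relative, which is linked to insulin gene control in the endocrine pancreas, went from 20 to 23.1 CPM to 37.3 to 45.1 CPM, 1.91-fold (log2 0.94 ± 0.16, FDR = 0.00199). Klf13, studied mainly in lymphocytes and heart, went from 50.4 to 73.6 CPM to 95.3 to 97.9 CPM, 1.61-fold (log2 0.69 ± 0.18, FDR = 0.0129).

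Klf3, the member that recruits CtBP, had the smallest difference. Its values were 324, 284 and 187 CPM in NT cytoplasm and 423, 439 and 369 CPM in N6L cytoplasm, 1.55-fold higher on the fit (log2 0.63 ± 0.23, FDR = 0.0497). The gap between the highest NT culture and the lowest N6L culture was smaller than the spread of the NT cultures, and the call was lost without any 1 of NT cultures 1, 2 and 4 or N6L cultures 1 and 2 (FDR = 0.0543, 0.0884, 0.164, 0.106 and 0.202). Exons of Klf3 overlap those of Gm20033 on the other strand, a gene with 188 counts over all libraries against 106773 for Klf3, and those of Klf7 overlap those of Gm13748 and Gm26649, with 0 and 6 counts.

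Of the other calls, that for Klf13 was lost without NT culture 1 (FDR = 0.0616), that for Klf7 without NT culture 4 (0.0613), and those for Klf6, Klf7 and Klf13 without N6L culture 2 (0.0519, 0.0719 and 0.0858), so that 6 of 10 remained past the limit without that culture, where 4.02% of all genes passed in this direction. Longer mRNAs as a whole were also higher in the cytoplasm with N6L. The median log2 difference over all genes, put into 4 equal classes by transcript length, rose from -0.48 in the shortest class to 0.42 in the longest. With offsets for transcript length and GC content, 8 of 10 members passed the limit, as did 12.1% of all genes, and their median log2 difference was 0.83. Klf3 and Klf13 did not pass, at log2 0.19 (FDR = 0.341) and 0.31 (FDR = 0.11).

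The second comparison asked the same of the mRNA on polysomes. The paper reports that polysome peaks shrank strongly under N6L. Levels here are shares of the polysomal mRNA, so a higher level need not mean more of an mRNA on polysomes per cell. There, 3 of the 10 mRNAs passed the limit, Klf2, Klf10 and Klf11, all higher with N6L, against 6.01% of all genes in this direction. The log2 differences of the 10 were all above 0, from 0.31 to 1.85 (median 0.71, against 0.00 for all genes). The N6L libraries lay wholly above the NT libraries for 7 members, and for 13.7% of all genes.

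**Figure D2:**
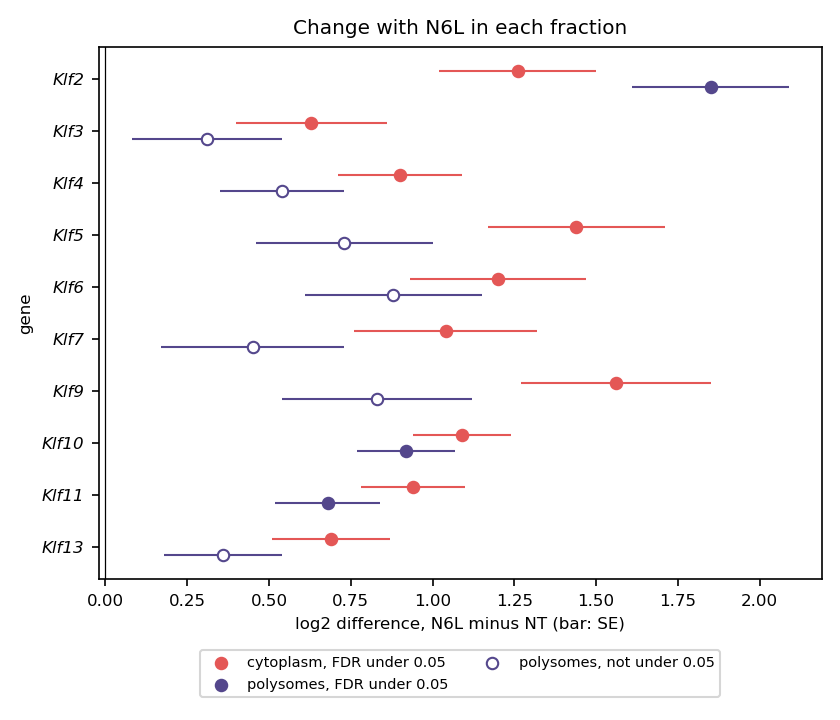
Log2 difference between N6L and NT (horizontal axis, bars are SE) for each gene in the cytoplasm and in polysomes; filled points have an FDR under 0.05. All points are above 0, and for every gene but Klf2 the polysome point is left of the cytoplasm point.

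Klf2 stood at 16.2, 19.6 and 20.5 CPM in the polysomes of NT cultures 1, 2 and 4 and at 46.7, 64.7 and 92.3 CPM in those of N6L cultures 1, 2 and 3. The treated cultures were widely spread but the lowest was more than double the highest NT culture, and the difference was log2 1.85 ± 0.24 (FDR = 0.00104), or 3.61-fold. Klf10 was at 110, 113 and 110 CPM, which hardly varied, and at 229, 232 and 172 CPM with N6L, 1.9-fold higher (log2 0.92 ± 0.15, FDR = 0.00365). Klf11 was at 21.2, 20.5 and 17.3 CPM and at 34, 34 and 26.7 CPM, 1.61-fold higher (log2 0.68 ± 0.16, FDR = 0.0181). The calls for Klf2 and Klf10 held without any 1 culture, and that for Klf11 was lost without NT culture 1, 2 or 4 or N6L culture 2 (FDR = 0.0716, 0.0508, 0.0762 and 0.139).

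The other 7 did not pass. Klf6 came closest, with 291, 269 and 162 CPM without N6L and 505, 533 and 293 CPM with it (log2 0.88 ± 0.27, FDR = 0.0544), where N6L culture 3 was level with NT culture 1. Klf9 had a log2 difference of 0.83 ± 0.29 (FDR = 0.0831), Klf4 of 0.54 ± 0.19 (FDR = 0.0886) and Klf5 of 0.73 ± 0.27 (FDR = 0.0957). Klf4, the most abundant, was at 388, 492 and 313 CPM and at 543, 638 and 559 CPM, without overlap. Klf13, Klf7 and Klf3 had log2 differences of 0.36 ± 0.18, 0.45 ± 0.28 and 0.31 ± 0.23 (FDR = 0.204, 0.322 and 0.403). N6L culture 3 was the lowest of the treated polysome libraries for 8 of the 10, the exceptions being Klf2, where it was the highest, and Klf4, where it was second. Without it, Klf6 and Klf9 passed as well, 5 of 10 in all, against 4.86% of all genes. The count was 5 with DESeq2 (8.09% of all genes) and 7 without a filter on low counts (4.02%).

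The next comparisons set polysomes against cytoplasm within each treatment. They ask whether the level of an mRNA on polysomes, relative to the other mRNAs there, differed from its relative level in the cytoplasm. In NT cells none of the 10 differed between fractions by edgeR's test or by DESeq2, and 0.209% of all genes did by edgeR. At an unadjusted p under 0.05 there was 1 member, Klf6 (log2 -0.59 ± 0.27), and 13.4% of all genes. In N6L cells 5 members were lower in polysomes than in the cytoplasm, Klf3, Klf5, Klf6, Klf7 and Klf9, against 20.6% of all genes, and 1, Klf2, was higher, against 18.4%. With the culture as a replicate block, since both fractions of a culture come from one lysate, all 10 passed the limit, Klf2 higher and the other 9 lower, where 26.1% of all genes were higher and 27.6% lower.

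The lowest ratio was that of Klf7. Its log2 ratio of polysomes to cytoplasm was -0.26, -0.72 and -0.75 in NT cultures 1, 2 and 4 and -0.78, -0.93 and -1.95 in N6L cultures 1, 2 and 3. N6L culture 3 stood far below the others, and cultures of both treatments nearly met (fitted log2 difference in N6L cells -1.15 ± 0.28, FDR = 0.00792). Klf9 had ratios of -0.13, -0.47 and 0.09 in NT and of -0.66, -0.82 and -1.51 in N6L cultures, and Klf6 of -0.60, -0.57 and -0.60 against -0.66, -0.82 and -1.36. The fitted differences between fractions in N6L cells were log2 -0.96 ± 0.29 for Klf9 and -0.90 ± 0.27 for Klf6 (FDR = 0.0186 and 0.0189). Klf5 went from 0.30, -0.13 and -0.36 to -0.52, -0.59 and -1.28, with a fitted difference in N6L cells of -0.76 ± 0.27 (FDR = 0.0357).

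Klf2 had the opposite sign. Its log2 ratio was 0.02, 0.27 and -0.10 in NT and 0.43, 0.53 and 0.89 in N6L cultures, without overlap, and the fitted difference between fractions in N6L cells was 0.66 ± 0.23 (FDR = 0.037). The ratios of Klf4, Klf10, Klf11 and Klf13 in N6L cultures were between -0.14 and -0.63, and their fitted differences of -0.37 to -0.40 did not pass without the block (FDR = 0.0616 to 0.108). In 8 of the 10 genes the ratio of every N6L culture lay below that of every NT culture, which held for 14.4% of all genes. Klf10 overlapped and Klf2 was above. The members were picked with results of these libraries known. Their N6L cytoplasm level, higher for all 10, is the denominator of the ratio. This count and the calls between fractions are therefore not independent evidence of the direction.

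**Figure D3:**
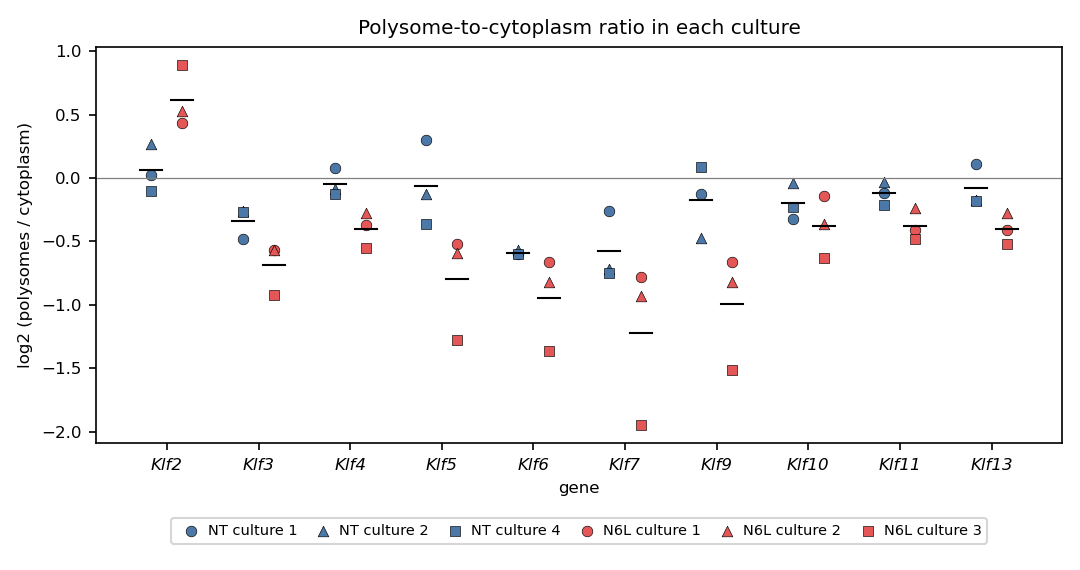
Log2 ratio of polysome to cytoplasm level (vertical axis) in each culture, NT in blue and N6L in red, with the mean of 3 cultures as a line. Klf2 is above its NT values in all 3 N6L cultures, 8 genes are below theirs, and N6L culture 3 (red squares) is farthest from 0 in every gene.

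N6L culture 3 had the lowest ratio of the N6L cultures in 9 genes and the highest in Klf2. The calls between fractions in N6L cells depended on it and on N6L culture 2. Without either of them 1 member remained past the limit, Klf7, and of all genes 5.66% were lower in polysomes once N6L culture 2 was left out and 8.64% once N6L culture 3 was. Without NT culture 1 or 2 there were 4, with the calls for Klf2 (FDR = 0.0538 and 0.0613) and for Klf5 or Klf3 (0.0533 and 0.051) lost. Without N6L culture 1 there were 5, with that for Klf3 lost (0.0676). Of all genes, 2158 were higher in polysomes and 2544 lower, of 14084, without NT culture 1. Without NT culture 2 these were 2212 and 2517 of 14111, and without N6L culture 1 they were 2573 and 3064 of 14100.

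The translational index is the difference between N6L and NT in the log2 ratio of polysomes to cytoplasm, fitted as 1 contrast. It tests whether this ratio changed with treatment relative to the other mRNAs. A change shared by all mRNAs is removed by the scaling, so the portion of an mRNA on polysomes was not measured. The index was below 0 for 9 of the 10, as for 49.3% of all genes, and at 0.60 ± 0.33 for Klf2. The same limit from the choice of the members applies to this count. No member passed the limit (FDR = 0.555 to 0.719 by edgeR), nor did 1 have an unadjusted p under 0.05. Over all genes the index passed for 0% of genes, and 7.73% had an unadjusted p under 0.05. DESeq2 also called none of the 10. The lowest indices were those of Klf9 (-0.73 ± 0.41), Klf5 (-0.71 ± 0.38) and Klf7 (-0.59 ± 0.39), and the smallest in size that of Klf10 (-0.17 ± 0.21). With the culture as a block none passed either (FDR = 0.196 to 0.507), and 5 members had an unadjusted p under 0.05 beside 21.6% of all genes, Klf2 (0.56 ± 0.19) upward and Klf3, Klf4, Klf5 and Klf9 downward (-0.35 ± 0.15, -0.36 ± 0.14, -0.73 ± 0.25 and -0.82 ± 0.25).

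Over all genes, transcript length moved with these ratios. The part of length in the ratios of the members was not tested. Klf2 has the shortest transcript of the 10, 1847 nt with 61.6% G and C, and Klf7 the longest, 7662 nt with 45.3%. Their indices were 0.60 and -0.59. Klf5 (3352 nt) and Klf9 (4486 nt) were at -0.71 ± 0.38 and -0.73 ± 0.41. The longer Klf3 (5221 nt) and Klf13 (6396 nt) were at -0.32 ± 0.32 and -0.32 ± 0.25. The members' median was 4156 nt, against 2727 nt for all genes tested, and their median 3′ untranslated region was 2718 nt, against 954 nt. Over all genes the median index fell from 0.35 in the class of shortest transcripts through 0.13 and -0.06 to -0.36 in the longest. The median ratio of the longest class minus that of the shortest was -0.41 to -0.48 in the NT cultures and -0.81, -1.06 and -1.70 in N6L cultures 1, 2 and 3, the last being the culture in which the KLF ratios were farthest out. Klf2 lies in the second class by length, Klf4, Klf5, Klf10 and Klf11 in the third, and Klf3, Klf6, Klf7, Klf9 and Klf13 in the longest.

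**Figure D4:**
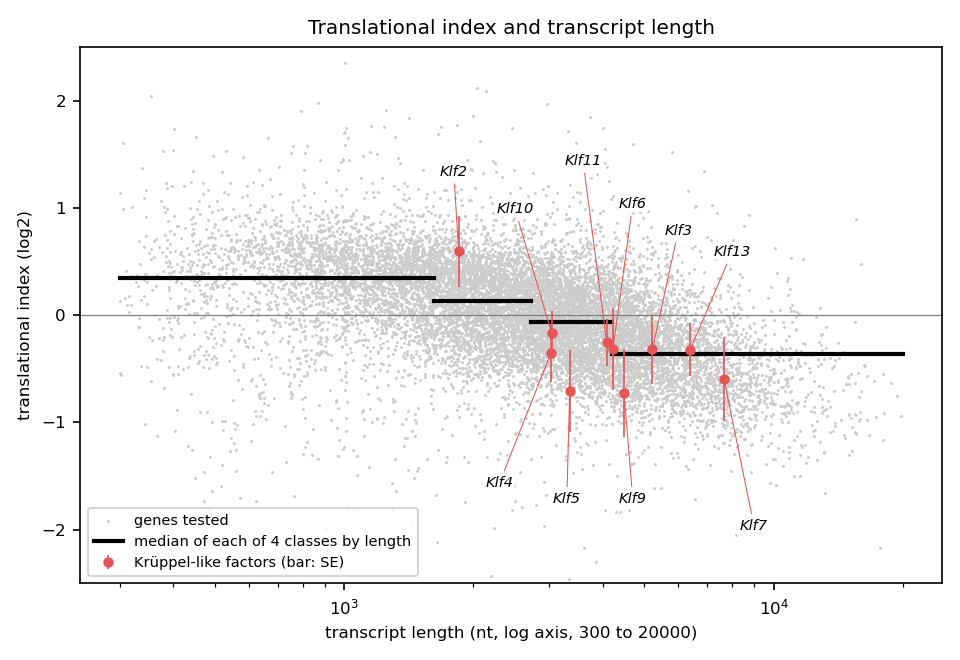
Translational index (log2, vertical axis) against transcript length (log axis) for the genes tested (grey), with the median of each of 4 equal classes by length (black) and the Krüppel-like factors in red with their SE. The median falls from 0.35 to -0.36 with length, and Klf2, the shortest of the 10, is the only one above 0.

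With offsets for length and GC content, the fractions of N6L cells differed for 1 member, Klf4 (log2 -0.56, FDR = 0.043), with 7.9% of all genes lower in polysomes. There Klf2 was at 0.07 (FDR = 0.754) and Klf7 at -0.21 (FDR = 0.379). Added after the data were seen, the same offsets with the culture block gave 3, Klf4, Klf5 and Klf9, all lower in polysomes, against 15.4% of all genes. The index of Klf2 was 0.16 with the offsets, those of Klf6, Klf7, Klf10 and Klf11 were within 0.01 of 0, and Klf5, Klf4 and Klf9 kept values of -0.53, -0.44 and -0.41. The polysome comparison between treatments gained calls with the offsets. Klf5, Klf6 and Klf9 passed beside Klf2, Klf10 and Klf11, 6 of 10 in all, where the share of all genes went from 6.01% to 9.26%.

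Another feature that the choice did not use is the AUUUA pentamer, a motif of unstable mRNAs, searched as ATTTA in the 3′ untranslated region of 1 transcript for each gene. All 10 had at least 1, as did 65.3% of 11935 genes tested with such a region. Klf7 had 18, Klf9 had 8, Klf3 and Klf6 had 7 each, and Klf2 and Klf4 had 1 each. Longer regions hold more by their length alone, and mRNA stability was not measured.

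Levels of different genes were compared per kb of transcript. In NT cytoplasm the order was Klf4 (136 CPM per kb), Klf6 (85.5), Klf3 (50.7), Klf10 (41.9), Klf5 (10.3), Klf2 (9.77), Klf13 (9.42), Klf11 (5.21), Klf9 (4.35) and Klf7 (3.09). Klf4 was above Klf6, Klf10 above Klf5 and Klf13 above Klf11 without overlap of their libraries, and the other neighbours overlapped. Of these, Klf6 was above Klf3 and Klf9 above Klf7 within each of the 3 libraries. With N6L the order of the cytoplasm was Klf4 (253), Klf6 (197), Klf10 (89.6), Klf3 (78.6), Klf5 (27.8), Klf2 (23.3), Klf13 (15.1), Klf9 (12.9), Klf11 (10) and Klf7 (6.37). There only Klf10 and Klf3, and Klf5 and Klf2, overlapped with each other, and within each of the 3 libraries the first of each pair was higher. In the polysomes of N6L cells Klf2 was at 36.8 CPM per kb, above Klf5 (16.4) without overlap and below Klf3 (49.5) with overlap. Klf3 depends on the length used, since the union of its annotated exons is 11243 nt and its transcript 5221 nt. On the former it stood at 23.6 CPM per kb in NT cytoplasm, below Klf10 at 30.5.

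**Figure D5:**
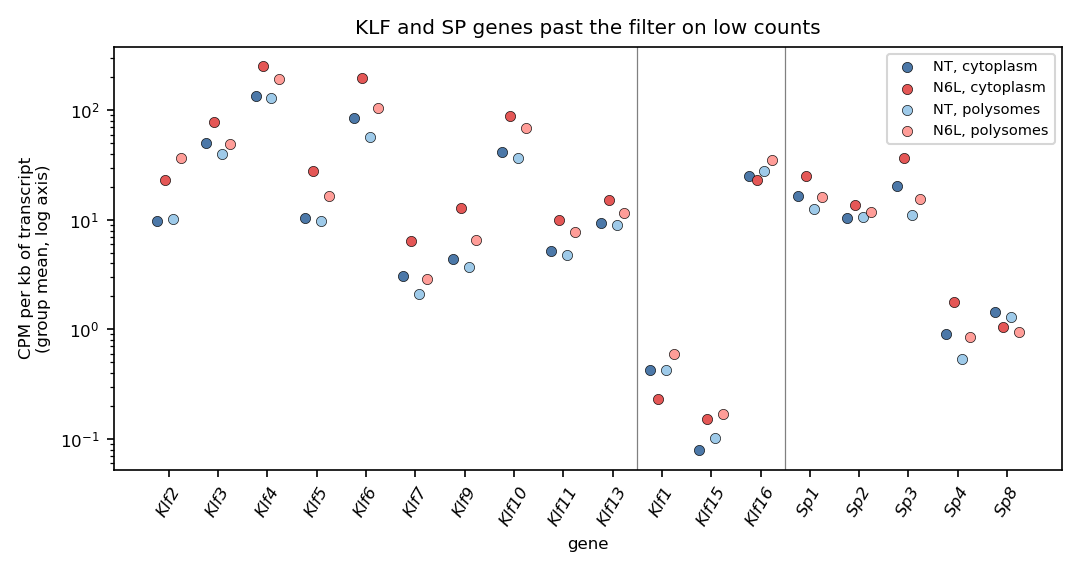
Mean level per kb of transcript (CPM per kb, log axis) in the 4 groups for the KLF and SP genes past the filter, with the 10 Krüppel-like factors described here on the left, the other KLF genes in the middle and the SP genes on the right. Klf4 and Klf6 are the highest of all, and Klf16 lies among the 10 in level but is no higher in N6L than in NT cytoplasm.

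Of the 7 other KLF genes, Klf1, Klf15 and Klf16 passed the filter and none changed with N6L in either fraction by edgeR's test. In the cytoplasm 1 of them, Klf1, had an unadjusted p under 0.05, as did 5907 of the 13889 genes tested. In polysomes none had, against 3684 of the 13889 genes. Klf16, a further Sin3-binding repressor, was at 70.4, 64.9 and 66.8 CPM in NT cytoplasm and at 60.4, 61.4 and 64 CPM in N6L cytoplasm (log2 -0.12 ± 0.21, FDR = 0.686). All 3 treated values lay below the NT values, unlike those of the 10. In polysomes it was at 65, 77.6 and 83.8 CPM and at 63.1, 88.1 and 133 CPM (log2 0.33 ± 0.21, FDR = 0.352), and in N6L cells it was higher in polysomes than in the cytoplasm, as was Klf2 (log2 0.61 ± 0.21, FDR = 0.0348). Its transcript, 2674 nt with 60.4% G and C, is also short and GC-rich, and with the offsets that difference was 0.21 (FDR = 0.247). Klf1, the erythroid factor, stayed at 1.27 CPM or below. Its log2 difference was -0.90 ± 0.38 in the cytoplasm (FDR = 0.0876) and 0.45 ± 0.35 in polysomes (FDR = 0.445), and in N6L cells its polysome level was above its cytoplasm level (log2 1.36 ± 0.37, FDR = 0.0122). Klf15, a metabolic regulator, stayed at 0.531 CPM or below, with log2 differences of 0.88 ± 0.46 and 0.66 ± 0.44 (FDR = 0.162 and 0.366). Klf8 and Klf12, which like Klf3 recruit CtBP, had 0 to 2 counts in the 3 libraries of a group, and Klf14 and Klf17 had 0 counts in all libraries.

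Of the 9 SP genes, 5 passed the filter. In the cytoplasm Sp4 (log2 0.97 ± 0.28, FDR = 0.02), Sp3 (0.83 ± 0.27, FDR = 0.0338) and Sp2 (0.38 ± 0.14, FDR = 0.0474) were higher with N6L, as were 14.5% of all genes. Sp3, which can activate or repress, was at 111, 86.8 and 58.7 CPM and at 132, 176 and 149 CPM. Sp1, the general activator of GC-box promoters, was at 163, 123 and 98.5 CPM and at 192, 220 and 175 CPM, a difference that did not pass (log2 0.61 ± 0.26, FDR = 0.0849). Sp8 had a log2 difference of -0.46 ± 0.25 (FDR = 0.178). None of the 5 passed in polysomes by edgeR, where 1 had an unadjusted p under 0.05, as did 3684 of 13889 genes. Sp3 and Sp4 were lower in polysomes than in the cytoplasm of N6L cells (log2 -1.24 ± 0.27 and -1.06 ± 0.27, FDR = 0.00605 and 0.0106), as were 20.6% of all genes. Sp5, Sp6, Sp7 and Sp9 had 20 counts or fewer in the 3 libraries of any group. The median of the 5 in the cytoplasm was 0.61, against 1.07 for the members described here and 0.04 for all genes. For the other KLF genes past the filter the median there was -0.12. The members were picked with results of these libraries known, so these medians do not compare the KLF and SP families.

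Genes for partners of KLFs were counted in the same way. Of 9 CtBP and Sin3 corepressor genes, 1 passed the limit in the cytoplasm, Sin3b, which encodes a scaffold that Klf9, Klf10, Klf11 and Klf13 can bind. It fell by 0.72 on the log2 scale (SE 0.18, FDR = 0.0125), from 173, 166 and 206 CPM to 115, 103 and 113 CPM, and the list's median was -0.33. Over all genes 13.8% were lower in the cytoplasm with N6L. Of 5 coactivator genes, 2 were higher in the cytoplasm, as were 14.5% of all genes, and 1 lower. Ep300, an acetyltransferase that KLF activators recruit, went from 92.4, 87.7 and 50 CPM to 186, 199 and 199 CPM (log2 1.34 ± 0.34, FDR = 0.0117), and in N6L polysomes it was at 80.1, 66.1 and 25.7 CPM. Kat2a, another acetyltransferase, was lower (log2 -0.47 ± 0.16, FDR = 0.0399). None of either list passed between treatments in polysomes by edgeR. There 1 gene of each had an unadjusted p under 0.05, as did 3684 of 13889 genes.

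Of 9 genes for the ubiquitin ligases and deubiquitinases that act on KLF proteins, 2 were higher in the cytoplasm and none lower. Over all genes 14.5% were higher there and 13.8% lower. Usp9x, a deubiquitinase, rose from 17.3, 21.6 and 10.5 CPM to 50.3, 65.8 and 51.7 CPM (log2 1.76 ± 0.36, FDR = 0.00454), and in polysomes its log2 difference was 0.38 ± 0.35 (FDR = 0.525). Of 12 upstream regulators, 11 were tested and 6 were higher in the cytoplasm and none lower (median 0.57), against the same shares of all genes. The largest rise past the limit was that of Foxo3, a forkhead factor that can act upstream of Klf2, from 43.1, 42.9 and 30.4 CPM to 64.9, 70.8 and 71.2 CPM (log2 0.83 ± 0.20, FDR = 0.00988). In polysomes 1 of the 11, Srf, was higher, against 6.01% of all genes.

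Of 12 genes reported as targets of KLFs, 11 were tested, 1 passed in the cytoplasm and in polysomes, and 10 did not pass in either. It was Birc5, which encodes the mitotic protein survivin. It fell in the cytoplasm from 222, 219 and 273 CPM to 145, 124 and 125 CPM (log2 -0.86 ± 0.16, FDR = 0.00268) and in polysomes from 316, 265 and 358 CPM to 199, 177 and 207 CPM (log2 -0.69 ± 0.16, FDR = 0.0157). Over all genes 3.66% were lower in polysomes. The median of the list was -0.07 in the cytoplasm and -0.06 in polysomes.

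Across the 12 libraries, the level of each member was correlated with the mean of the other 9 (z-scores of log2 CPM). Pearson's r was 0.842 to 0.975 for 9 of them, highest for Klf9, and 0.533 for Klf2. Of the genes that averaged 10 CPM or more, the 5 most like the mean of the 10 were Hmgcs1 (r = 0.988), an enzyme of cholesterol synthesis, Mtss1 (0.988), an actin-binding protein, Bcl6 (0.987), a transcriptional repressor, Cyp3a13 (0.987), a cytochrome P450, and Dennd2c (0.986). They passed the limit in both fractions, with log2 differences of 1.23 to 2.15 in the cytoplasm and 0.74 to 1.53 in polysomes. As the same libraries served to choose them, this is no separate evidence. The libraries share treatment, fraction and culture, so these values describe a common pattern over 4 groups and carry no test.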

How the data were processed

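Cytoplasmic and polysome RNA was sequenced from 3 NT and 3 N6L cultures, 12 libraries in 4 groups. The authors aligned the reads with STAR to mm10 and deposited raw HTSeq (0.5.3) counts per gene for 4 technical replicates of each library, which were summed here. Which annotation release, strand setting and rule for multimapping reads applied is not stated in the labels or methods and so not given in the sources used here. The labels disagree on the culture number of 3 technical replicates of N6L cytoplasm. They were kept with culture 2, since chi-square over its degrees of freedom was 1.01 to 1.04 between them and its remaining replicate and 11.2 to 11.4 between them and culture 1. Of 50600 genes, 50376 were in GENCODE vM21 (GRCm38), which gave symbols and transcripts (the longest coding one of each gene). No entry named no gene.

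After filterByExpr and TMM scaling, edgeR 4.0.16 (R 4.3.3; glmQLFit, glmQLFTest) was fitted to the counts of all 12 libraries with 1 mean per group, with Benjamini-Hochberg adjustment over 13889 genes and a limit of 0.05. The smallest library held 19519911 counts. The fit was tested on simulated counts. Ratios per culture use log2 CPM with a prior count of 2. The fractions of a culture are paired by their lysate (correlation of deviations 0.364, 0.452 and 0.645 in NT and 0.0368, 0.199 and 0.229 in N6L cultures), and the culture was a block in an alternative. Cultures are separate by their number only, so p-values measure the spread between these samples.

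Alternatives were RLE factors, library totals, other filters, DESeq2 1.42.0, technical replicate a alone, conflicting replicates or 1 culture left out, a block, and length and GC offsets, with the offsets plus block added after the data were seen. The text names all 10 members, every other KLF and SP gene, the largest rise and fall past the limit in the cytoplasm in each further list of partners, regulators and targets, and the 5 genes most like the members. Srf and the members singled out were named after their values were seen. The members and the lists were chosen with earlier results of these data known. Promoters are from RefSeq (GRCm38.p6), 8 of 10 members matched, searched on both strands. Protein sequences were not used here.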

Additional observations from a re-analysis of the deposited data

How the results depend on the processing

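Every member kept the direction of its difference between treatments, in the cytoplasm and in polysomes, under all 16 alternatives tried. In the cytoplasm 6 to 10 members passed the limit when 1 culture was left out (6 without N6L culture 2), and 7 to 10 under the other alternatives. Over all genes, 563 to 2149 were higher there with 1 culture left out, of 14019 to 14111 tested. Under the other alternatives 1610 to 2631 were, of 11885 to 25915 tested. In polysomes 2 to 5 passed when 1 culture was left out, 7 without a filter on low counts, 5 with DESeq2, 5 with the replicate number as a replicate block, 6 with length and GC offsets and 6 with these and the block, against 3 as reported. This block matches N6L and NT cultures by number, and only numbers 1 and 2 occur in both treatments. Such cultures share no lysate, and what a shared number means is not stated in the sources used here. Over all genes, 129 to 884 were higher in polysomes with 1 culture left out, of 14019 to 14111 tested. With the block 831 of 13889 genes were higher, and with the offsets and the block 1264 of 13867. Between the fractions of N6L cells, where the replicate block is the lysate, 10 passed with it, 1 with length and GC offsets and 3 with both. With 1 culture left out 1 to 6 passed, against 6 as reported. Over all genes, 359 to 2964 were then higher in polysomes and 794 to 3064 lower, of 14019 to 14111 tested. With library totals alone 7 passed, all lower in polysomes, as were 3119 of 13889 genes, and Klf2 did not (FDR = 0.0772). In NT cells and for the translational index, 0 of 10 passed under every alternative.

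The values after a change of sign were between -0.09 and 0.13 and past no limit. As reported, 1 of these results had passed, Klf3 between the fractions of N6L cells (log2 -0.67, FDR = 0.0319). Polysomes against cytoplasm in NT, they were Klf2 at -0.01 with library totals, -0.09 with length and GC offsets, -0.09 with these and the replicate block and -0.04 without NT culture 2, Klf4 at 0.02 with technical replicate a alone, Klf5 at 0.02 with the offsets, 0.01 with these and the block, and -0.21 to 0.02 when 1 culture was left out (0.00 without NT culture 2), and Klf13 at 0.03 with the offsets and 0.03 with these and the block. In N6L, Klf3 was at 0.05 with the offsets and 0.05 with these and the block. For the index, the values with the offsets and with these and the block were 0.13 and 0.12 for Klf3, 0.00 and 0.00 for Klf7, 0.00 and 0.00 for Klf10 and 0.01 and 0.01 for Klf11, and Klf6 was at 0.00 with both.

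Library totals moved the median of all genes in the cytoplasm from 0.042 to 0.186 and the median of the members from 1.07 to 1.21, and called 2588 genes higher and 1363 lower, against 2013 and 1922 as reported. The cause of the changes with the offsets and the block was not tested.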
